A study of Homo sapiens with 9 samples.

Results

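In the human liver cancer line HepG2, 432 genomic regions carried peaks of ARID1A and ARID2, none of ARID1B and none labelled as promoter in the authors' lists. They came from 25247 merged regions, of which 10638 held no promoter-class peak. The members were selected on the peak calls themselves. The peaks of the 3 ARID lists were pooled, peaks that shared at least 1 bp were joined into merged regions, and a region was kept when it held an ARID1A and an ARID2 peak, no ARID1B peak and no peak in the promoter class. The presence of these peaks, and the distance of more than 1000 bp from an annotated transcription start site (TSS), are therefore what the selection used and not results.

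SWI/SNF complexes use ATP to slide or eject nucleosomes. They come in forms that share a core, which includes SNF5 (SMARCB1), and differ in the ARID subunit. ARID1A and ARID1B are alternative subunits of the BAF form and ARID2 belongs to the PBAF form, so a site with ARID1A and ARID2 peaks is one where subunits of different forms were both called in the cell population. SWI/SNF binding away from promoters is best known at enhancers, the stretches of DNA that bind transcription factors and act on genes at a distance.

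The material was untreated, unmodified HepG2 cells, a single line derived from a hepatocellular carcinoma. Chromatin was crosslinked, cut with micrococcal nuclease and precipitated with antibodies to ARID1A, ARID1B, ARID2 or SNF5. There were 2 libraries per antibody and 1 input library, 9 in all, and every group was the same line under the same conditions. The ARID1A list held 12852 peaks, that of ARID2 held 12995, that of ARID1B held 8728 and that of SNF5 held 20718, each called by the authors on merged replicates, so a peak has no replicate spread here, and read depth per library is unknown from these files. Of 13 hepatocyte marker genes, 11 had at least 1 ARID peak assigned and 2, APOB and FOXA1, had a member assigned. The files hold no expression values with which the cell type could be checked further.

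The sequences below show what such regions look like at the DNA level, read from GRCh37, the assembly also called hg19. The first 4 were among the 10 members with the highest SNF5 peak scores, and the others were assigned to genes of lipid metabolism and TGF-beta signalling. Each is a whole merged region of at most 300 bp, and capitals mark the span that the ARID1A and ARID2 peaks shared.

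LRFN3 region, chr19:36422379-36422536, plus strand: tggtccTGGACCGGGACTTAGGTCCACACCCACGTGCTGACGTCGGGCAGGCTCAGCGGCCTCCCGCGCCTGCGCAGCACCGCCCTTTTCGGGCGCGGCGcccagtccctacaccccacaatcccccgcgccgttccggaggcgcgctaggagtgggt
RNU6-10 region, chr7:92324451-92324627, plus strand: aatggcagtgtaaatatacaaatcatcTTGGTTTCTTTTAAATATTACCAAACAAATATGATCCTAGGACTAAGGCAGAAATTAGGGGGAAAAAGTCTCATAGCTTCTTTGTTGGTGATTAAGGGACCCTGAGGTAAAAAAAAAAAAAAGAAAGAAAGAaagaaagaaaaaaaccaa
PSMA3 region, chr14:58706444-58706740, plus strand: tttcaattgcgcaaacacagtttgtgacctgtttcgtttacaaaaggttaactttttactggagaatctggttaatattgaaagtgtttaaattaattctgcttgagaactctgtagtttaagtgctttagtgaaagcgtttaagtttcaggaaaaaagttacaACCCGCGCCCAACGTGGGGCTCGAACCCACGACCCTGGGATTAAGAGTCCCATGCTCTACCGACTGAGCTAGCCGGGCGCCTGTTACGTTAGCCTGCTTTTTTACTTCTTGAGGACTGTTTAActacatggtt
U7 region, chr21:18827016-18827234, plus strand: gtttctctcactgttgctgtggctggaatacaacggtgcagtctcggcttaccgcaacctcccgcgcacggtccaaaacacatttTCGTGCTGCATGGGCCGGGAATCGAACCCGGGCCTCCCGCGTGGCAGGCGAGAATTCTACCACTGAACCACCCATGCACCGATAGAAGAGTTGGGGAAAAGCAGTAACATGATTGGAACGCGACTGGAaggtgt
SREBF1 region, chr17:17742834-17743130, plus strand: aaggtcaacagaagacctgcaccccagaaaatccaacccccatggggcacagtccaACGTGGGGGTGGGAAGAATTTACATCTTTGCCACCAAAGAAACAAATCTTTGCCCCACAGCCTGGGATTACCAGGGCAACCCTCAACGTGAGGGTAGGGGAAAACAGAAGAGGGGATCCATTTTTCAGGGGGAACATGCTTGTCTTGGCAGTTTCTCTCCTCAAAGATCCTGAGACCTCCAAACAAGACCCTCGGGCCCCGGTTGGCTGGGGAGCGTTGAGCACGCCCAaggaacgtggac
SKI region, chr1:2166066-2166331, plus strand: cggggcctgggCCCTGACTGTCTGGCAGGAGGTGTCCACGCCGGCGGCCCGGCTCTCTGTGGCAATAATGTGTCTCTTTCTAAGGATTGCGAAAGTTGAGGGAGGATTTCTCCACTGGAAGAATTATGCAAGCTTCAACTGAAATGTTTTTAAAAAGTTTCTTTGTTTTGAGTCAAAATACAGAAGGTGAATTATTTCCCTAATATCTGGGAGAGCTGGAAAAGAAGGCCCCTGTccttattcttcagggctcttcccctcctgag

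These regions differed widely in composition. The LRFN3 region was 72.2% G and C with 19 CG pairs in 158 bp, whereas the RNU6-10 region was 31.1% G and C with no CG pair in 177 bp. The PSMA3 and U7 regions both held the letters GTTCGANNC on the minus strand inside the shared span, starting at bases 182 and 104 of the region as printed. The same letters occurred in other members and are taken up with the motifs.

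The ARID1A and ARID2 peaks of a member overlapped in part, and in no member did the pair share both boundaries. The 432 members held 442 ARID1A peaks, 3.44% of that list, and 443 ARID2 peaks, 3.41% of that list. Most members, 413, consisted of 1 peak of each, 18 held 3 peaks and 1 held 5. The longest span shared by an ARID1A and an ARID2 peak had a median of 112 bp, with quartiles of 61 and 185 bp and a range from 2 to 993 bp. The midpoints of that pair lay a median of 88 bp apart. In 194 members (44.9%) one peak lay wholly within the other, ARID2 inside ARID1A in 102 and ARID1A inside ARID2 in 92. Neither subunit was regularly the wider one, as the ARID1A peak of the pair was wider in 218 members and the ARID2 peak in 214.

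**Figure D1:**
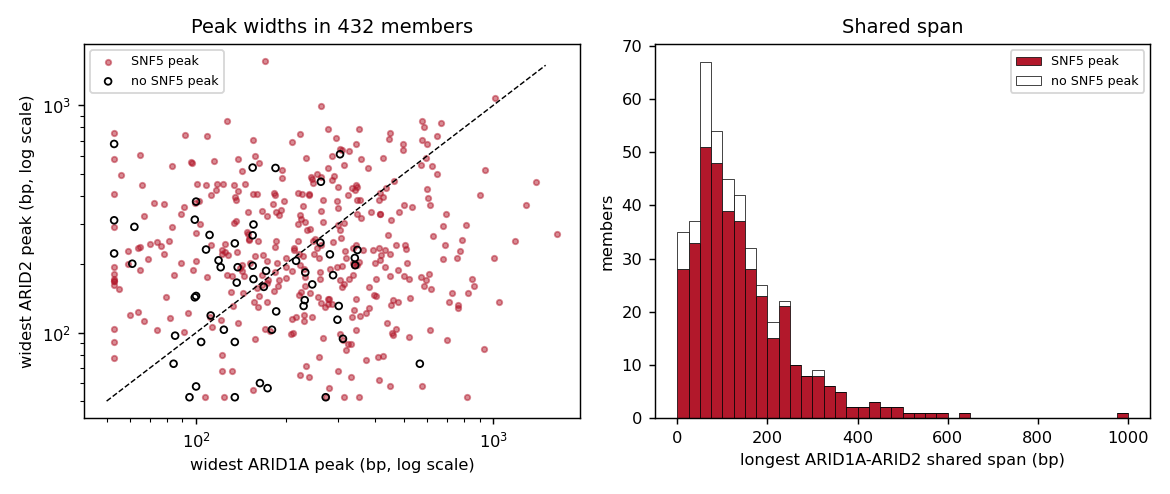
Left, width of the widest ARID2 peak against the widest ARID1A peak in each of the 432 members (both in bp, log scales), with the dashed line marking equal widths. Right, number of members by longest shared span in bins of 25 bp, where filled symbols and bars are members with an SNF5 peak and open ones are the 55 without. The points spread on both sides of the line and the shared spans centre near 112 bp.

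Member peaks were wider than peaks found alone. ARID1A peaks in members had a median width of 232 bp, against 147 bp in non-promoter regions with ARID1A alone. For ARID2 the medians were 214 and 145 bp. A wider peak has more room to overlap another, so these widths are in part what the selection used and are given without a test. The merged regions had a median width of 379 bp, against 635 bp for non-promoter regions with all 3 ARIDs, 449 bp for promoter regions with ARID1A and ARID2 only, and 147 and 145 bp for non-promoter regions with ARID1A or ARID2 alone.

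The limits of the rule passed through closely spaced peaks. The shortest shared span was 2 bp, at GALNT13 (chr2:155304475-155304691), and 17 members shared 10 bp or less. Just outside, 88 non-promoter ARID1A-alone regions lay within 100 bp of an ARID2-alone region, 9 of them within 10 bp, and the closest, at TECTB, USP7 and HEMK1, touched without sharing a base. The member nearest to a TSS was 1004 bp away, at CTSB, and the promoter region with ARID1A and ARID2 farthest from a TSS was 992 bp away, at CEBPB. The absence of ARID1B was equally a matter of short distances. An ARID1B peak lay 2 bp from the member at POU2F1, within 100 bp of 29 members (6.71%) and within 1000 bp of 153 (35.4%).

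SNF5 was the measurement that the selection did not use, since it came from other libraries and another antibody. Of the 432 members, 377 overlapped an SNF5 peak by at least 1 bp, which is 87.3% (95% Wilson interval 83.8 to 90.1%). Among all merged ARID regions the share was 60.0%, and among all non-promoter regions it was 51.5%. Regions with ARID1A alone or ARID2 alone stood far below the members, regions with all 3 ARIDs stood above them, and promoter regions with the same pair of subunits had nearly the same share. The classes also differ in the peak calls they required. Members needed a call from both ARID1A and ARID2, the alone classes from only 1 of these, and regions with all 3 ARIDs a further call from ARID1B. The part this plays in the shares was not tested.

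Non-promoter regions with ARID1A alone overlapped SNF5 in 978 of 2056 cases (47.6%). The members exceeded them by 39.7 percentage points, an odds ratio of 7.56 (95% interval 5.58 to 10.1, two-sided Fisher exact test, adjusted p = 1.50e-56). Regions with ARID2 alone overlapped SNF5 in 1270 of 2841 cases (44.7%), an odds ratio of 8.48 for the members (6.29 to 11.3, Fisher exact test, adjusted p = 1.70e-66). Of the 519 non-promoter regions with all 3 ARIDs, 512 (98.7%) overlapped SNF5, and the members fell short of them by an odds ratio of 0.0937 (0.0459 to 0.216, Fisher exact test, adjusted p = 3.17e-13). Promoter regions with ARID1A and ARID2 only had SNF5 in 2379 of 2714 cases (87.7%), and the odds ratio of 0.965 (0.708 to 1.30, Fisher exact test, adjusted p = 0.814) left room for a modest difference in either direction. The adjusted p covers these 4 comparisons, and the tests take regions as independent, which neighbouring regions are not.

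**Figure D2:**
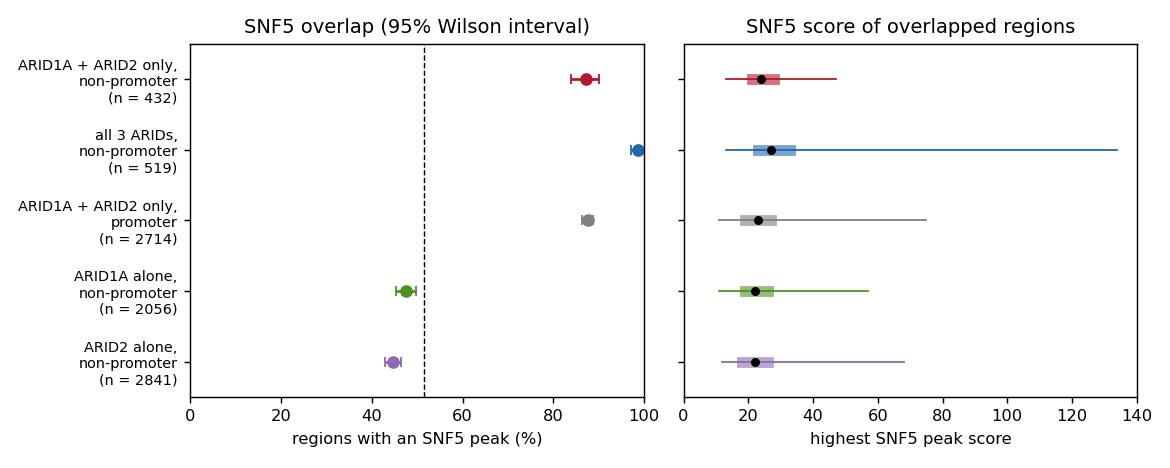
Left, percentage of regions with an SNF5 peak in each of 5 classes, with 95% Wilson intervals, and the dashed line at 51.5% for all non-promoter regions. Right, highest score of an overlapping SNF5 peak, with the median (black point), the quartiles (thick bar) and the range (thin line); members sit at 87.3% with a median score of 24.

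Region width moved with these shares. Within strata of merged width the Mantel-Haenszel odds ratios were 3.86 against ARID1A alone, 4.42 against ARID2 alone and 0.190 against all 3 ARIDs, each past the threshold after adjustment. SNF5 peaks that reached promoters made up part of the overlap. When SNF5 peaks that reached a promoter-class ARID peak were not counted, 67.1% of members still overlapped one, against 42.3% and 36.8% of regions with ARID1A or ARID2 alone and 87.1% with all 3, at odds ratios of 2.79, 3.51 and 0.303 (Fisher exact test, adjusted p = 5.45e-21, 5.73e-32 and 1.34e-13). This alternative was added after the values were seen.

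The SNF5 peaks over members were broad. With the highest-scoring peak counted once per member, the median width was 1345 bp, and 227 of the 377 members (60.2%) lay wholly inside that peak. By the same count the median was 1645.5 bp with all 3 ARIDs and 964 bp at promoters with the pair. It was 994 and 1097 bp with ARID1A or ARID2 alone. There were 362 distinct SNF5 peaks over the members, and 79 of them (21.8%) also reached an ARID1A or ARID2 peak of the promoter class. The highest SNF5 score at a member had a median of 24, with quartiles of 21 and 28 and a range from 13 to 47. The medians of the other classes were 27 for all 3 ARIDs, 23 for promoters with the pair, and 22 for either subunit alone. The score column was used as deposited, and the median over the whole SNF5 list was 19, which 324 of the 377 members (85.9%) met or passed. Among regions with SNF5 in the other classes, this share was 94.1% with all 3 ARIDs and 81.6% at promoters with the pair. It was 76.1% and 73.2% with ARID1A or ARID2 alone.

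The 55 members without SNF5 were not uniformly far from it. Of these, 30 had an SNF5 peak within 1000 bp and 25 had none. They were narrower, with a median width of 269 bp against 403 bp for members with SNF5, while the median TSS distance was 3677 bp against 4040 bp. Members 1 to 2 kb from a TSS overlapped SNF5 in 110 of 126 cases (87.3%), and those 10 to 50 kb away in 90 of 106 (84.9%), so the share was similar at both distances. Distal, intron and exon members overlapped SNF5 in 88.6%, 87.5% and 78.4% of cases, the last over only 37 members.

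The strongest SNF5 signals lay near genes of varied kinds. The highest score, 47, was at chr19:36422379-36422536, a distal region 3800 bp from the TSS of LRFN3, which encodes a synaptic adhesion protein. The region in an intron near RNU6-10, a U6 small nuclear RNA copy named RNU6-10P in Gencode v44, followed with 43. The distal region near SSPN, the gene of the membrane protein sarcospan, had 42. The regions near POLR2E, a subunit shared by the RNA polymerases, and near HIST1H1C, a linker histone gene, both had a score of 38. Scores of 37 were found near PSMA3, a proteasome subunit gene, and near ZMYND8, which encodes a reader of histone acetylation. The same score was found near a U7 small nuclear RNA copy, named RNU7-168P in Gencode v44. GLTPD2 and HIST2H3C, a histone H3 gene, came next with 36, as the wider of the members tied at that score. The HIST1H1C and HIST2H3C members lay 1675 and 1247 bp from a TSS and only 496 and 204 bp from an ARID1A or ARID2 promoter-class peak, and their SNF5 peaks were 2589 and 3038 bp wide. At both, the SNF5 peak met the merged region but missed the span that the ARID1A and ARID2 peaks shared.

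By the deposited feature class of the widest peak, 219 members (50.7%) were distal, 176 (40.7%, Wilson interval 36.2 to 45.4%) were in introns and 37 (8.56%) in exons. The intron share over all non-promoter regions was 53.8%. Members were less often intronic than regions with ARID2 alone, of which 57.4% were (odds ratio 0.511, interval 0.416 to 0.628, two-sided Fisher exact test, adjusted p = 3.97e-10), and than regions with ARID1A alone, of which 48.7% were (0.725, interval 0.588 to 0.895, Fisher exact test, adjusted p = 0.00445). Against regions with all 3 ARIDs, at 43.4%, the odds ratio was 0.898 (0.694 to 1.16, Fisher exact test, adjusted p = 0.429), which does not show that the classes were alike. With regions nearer than 5000 bp to a TSS left out, that comparison passed the threshold, at 30.6% of 186 members against 39.7% (odds ratio 0.671, Fisher exact test, adjusted p = 0.0445).

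Most members lay within 10 kb of a TSS. The deposited distance to the nearest TSS had a median of 4020 bp and ran from 1004 to 87932 bp. The median was 7396 bp for non-promoter regions with all 3 ARIDs, 4906 bp with ARID1A alone and 3891 bp with ARID2 alone. Of the members, 126 (29.2%) lay 1 to 2 kb away, 120 (27.8%) 2 to 5 kb, 73 (16.9%) 5 to 10 kb, 106 (24.5%) 10 to 50 kb and 7 farther. The paper describes promoters as reaching 2 kb to either side of a TSS, a span that would take in the first of these groups. An ARID1A or ARID2 peak of the promoter class lay within 1000 bp of 92 members (21.3%) and within 5000 bp of 189 (43.8%). Because the rule set a lower bound on this distance, the distances are given without a test.

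The promoter class used by the authors came from an older Gencode annotation. Against the transcript starts of Gencode v44 mapped to GRCh37, 84 members (19.4%, Wilson interval 16 to 23.4%) lay within 1000 bp of a start and 24 covered one. This distance ran from the nearest edge of the merged region, so it could be shorter than the deposited distance for the same gene. For the KLF6 member it was 928 bp to a KLF6 start, against a deposited 1306 bp. Members can thus be among the 84 without a newer start nearby, and how many was not counted. The share over all non-promoter regions was 9.24%, and it was 14.8% with all 3 ARIDs, 12.3% with ARID1A alone and 12% with ARID2 alone. Wider regions reach closer to a start by this measure. Median widths were 379 bp in members, 635 bp with all 3 ARIDs, and 147 and 145 bp with ARID1A or ARID2 alone. The part that width plays in these shares was not tested. For 45 of the 84 the nearest such gene was a long non-coding RNA and for 34 a protein-coding gene. Without the regions near a v44 start, 348 members remained and 85.6% of them overlapped SNF5, at odds ratios of 6.66 and 7.60 against ARID1A and ARID2 alone and 0.0820 against all 3 ARIDs (Fisher exact test, adjusted p = 4.31e-43, 1.53e-51 and 3.75e-13). That alternative was also added after the values were seen.

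**Figure D3:**
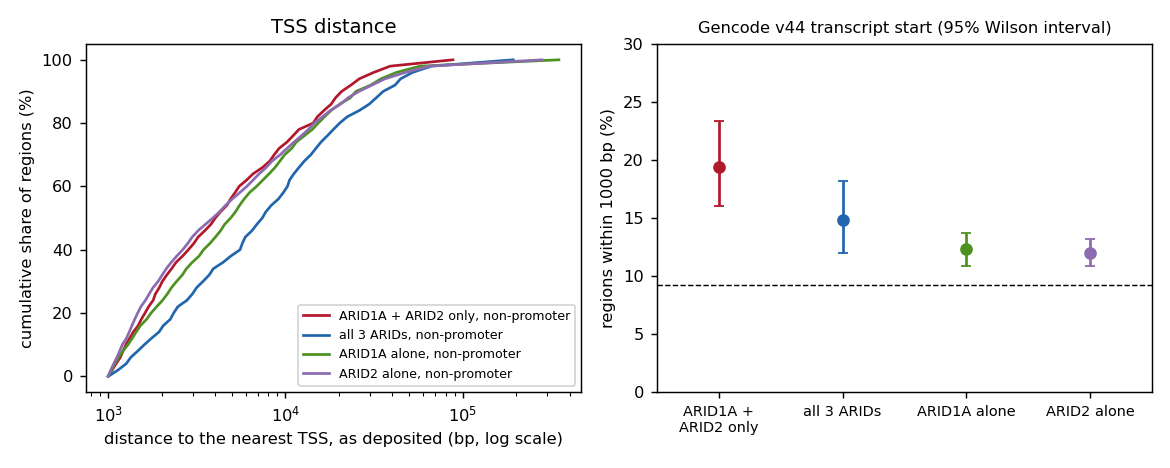
Left, cumulative percentage of regions against deposited distance to the nearest TSS (bp, log scale) for the 4 non-promoter classes. Right, percentage of each class within 1000 bp of a Gencode v44 transcript start, measured from the edge of the merged region, with 95% Wilson intervals. The dashed line marks 9.24% for all non-promoter regions, and the members are at 19.4%.

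The chromatin state labels that the lists give for each peak could be read on chromosome 1 only. On chromosome 1, overlapping ARID1A and ARID2 peaks carried the same state in 409 of 475 pairs (86.1%), where state frequencies alone would give 60.5%. On the other chromosomes they did so in 2481 of 5143 pairs (48.2%), where frequencies alone would give 42.5%. The feature class of the same pairs matched in 98.5% and 98.2%. Peaks that overlap should mostly lie in the same state, so the state values outside chromosome 1 were not read as properties of the regions.

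On chromosome 1 there were 44 members. The widest peak was in the active promoter state in 19 of them (43.2%, Wilson interval 29.7 to 57.8%), in a strong enhancer state in 15 (34.1%, 21.9 to 48.9%), and in any of the promoter states in 25 (56.8%). Promoter regions with the same pair of subunits were in the active promoter state in 83.6% of 262 cases and in a strong enhancer state in 3.05%. Of the 37 non-promoter regions with all 3 ARIDs, 24.3% were in the active promoter state and 43.2% in a strong enhancer state. The strong enhancer shares were 45.7% of 197 regions with ARID1A alone and 38.5% of 252 with ARID2 alone. None of the 3 strong enhancer comparisons on chromosome 1 passed the threshold (odds ratios 0.679, 0.615 and 0.827, Fisher exact test, adjusted p = 0.617, 0.543 and 0.617).

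**Figure D4:**
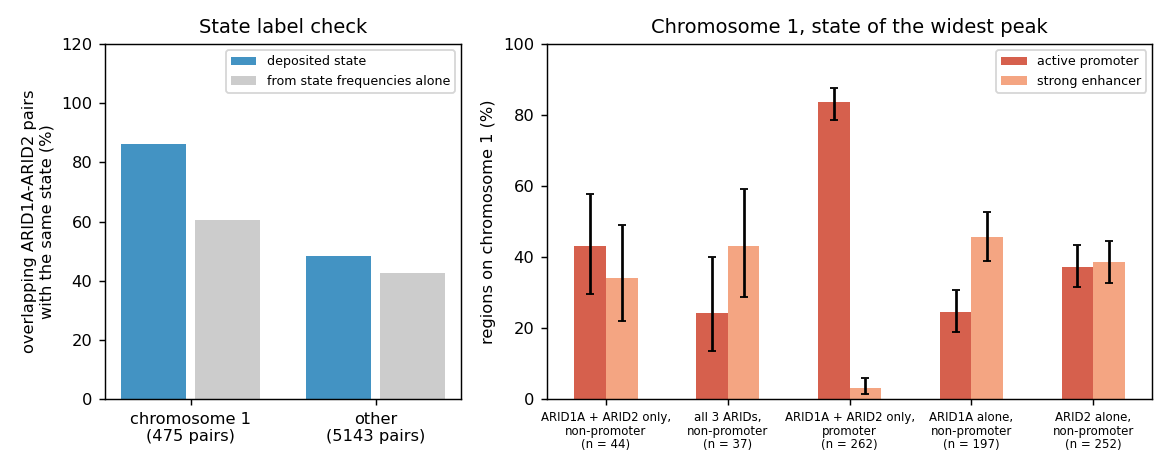
Left, percentage of overlapping ARID1A and ARID2 peak pairs with the same deposited chromatin state (blue) and the percentage given by state frequencies alone (grey), on chromosome 1 and elsewhere. Right, percentage of chromosome 1 regions whose widest peak is in the active promoter or a strong enhancer state, with 95% Wilson intervals; members are at 43.2% and 34.1%.

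Over all chromosomes, labels included as deposited, the strong enhancer share was 26.6% of members against 35.6% with all 3 ARIDs (odds ratio 0.655, interval 0.497 to 0.867, Fisher exact test, adjusted p = 0.00968), 26.9% with ARID1A alone (adjusted p = 0.952) and 23.2% with ARID2 alone (adjusted p = 0.193). The share over all non-promoter regions was 34.3%. These values rest on the labels that failed the check outside chromosome 1, and the first comparison did not pass within width strata (Mantel-Haenszel odds ratio 0.733).

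Transcription factors bind short DNA words, and their presence was counted in a window of 200 bp at the midpoint of each region, on both strands, so that all regions were searched over the same length. A match is a description of the letters and not a binding site. The members had more G and C than most non-promoter regions. Their median was 54.8%, against 48.5% over all non-promoter regions, 51.0% with all 3 ARIDs, 53.5% with ARID1A alone, 47.5% with ARID2 alone and 67.0% in promoter regions with the same pair. Windows of at least 65% G and C made up 23.4% of members, 8.23% of all non-promoter regions and 46.0% of all promoter regions. They made up 17.5% of non-promoter regions with all 3 ARIDs, 18.0% with ARID1A alone and 4.19% with ARID2 alone.

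The words of SP/KLF and CTCF were in a share of members between those of all non-promoter and all promoter windows, and the words of NRF1 and the E-box in a larger share than either. In promoter regions with the same pair, however, the NRF1 word was more frequent than in members and the E-box nearly as frequent. GGGCGG, the core bound by SP and KLF factors, was in 105 members (24.3%, Wilson interval 20.5 to 28.6%), in 11.2% of all non-promoter and 43.3% of all promoter windows. Its share was 18.5% with all 3 ARIDs, 18.2% with ARID1A alone and 7.36% with ARID2 alone. GCATGCGC, from the site of NRF1, a factor of nuclear genes for mitochondrial proteins, was in 19 members (4.40%, 2.83 to 6.77%), in 0.649% of all non-promoter and 3.11% of all promoter windows. The members' interval covered that all-promoter share, and promoter regions with the same pair stood at 7.74%. The E-box CACGTG, bound by MYC and USF among others, was in 33 members (7.64%, 5.49 to 10.5%), against 3.20% and 5.47%. It was in 7.33% of promoter regions with the same pair. AGGNGGC, part of the CTCF motif, was in 115 members (26.6%) against 17.5% and 31.0%. Regions with all 3 ARIDs and with ARID1A alone stood near the members, at 23.3% and 23.1%, and those with ARID2 alone at 14.6%. The ETS word CCGGAAG and the YY1 word AAGATGGCG, both common at promoters, were in 2.31% and 0.694% of members, against 1.64% and 0.113% of all non-promoter windows and 7.54% and 1.44% of all promoter windows.

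The NRF1 word was in 16 of the 348 members without a v44 start within 1000 bp (4.6%) and in 3 of the 84 with one (3.57%). The 19 members with it lay 1053 to 87779 bp from a TSS by the deposited distance, with a median of 3677 bp, and 15 overlapped SNF5. Among them were members near EEF2 and EEF2K, the genes of elongation factor 2 and its kinase, near SRC, a tyrosine kinase gene, and near XRCC5, a DNA repair gene. GGGCGG, by contrast, was in 40.5% of the members near a v44 start and in 20.4% of the others.

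Among the words of liver-enriched factors, those of FOXA, C/EBP and HNF4 were in a smaller share of members than of non-promoter regions with all 3 ARIDs, and that of HNF1 in a larger one. The FOXA word TGTTTAC was in 24 members (5.56%), against 8.09% with all 3 ARIDs and 4.68% of all non-promoter windows. TTGCNNAA, of the C/EBP factors, was in 9.72% of members against 13.9% and 11.3%, and the HNF4 word CAAAGTCCA was in 2 members (0.463%) against 2.50% and 1.27%. The HNF1 word GTTAATNAT was in 6 members (1.39%) against 0.963% and 0.696%. The AP-1 word TGANTCA stood at 7.64% in members against 9.25% and 7.85%, and the TEAD word GGAATG at 7.87% against 10.2% and 11.8%. These shares were not tested.

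**Figure D5:**
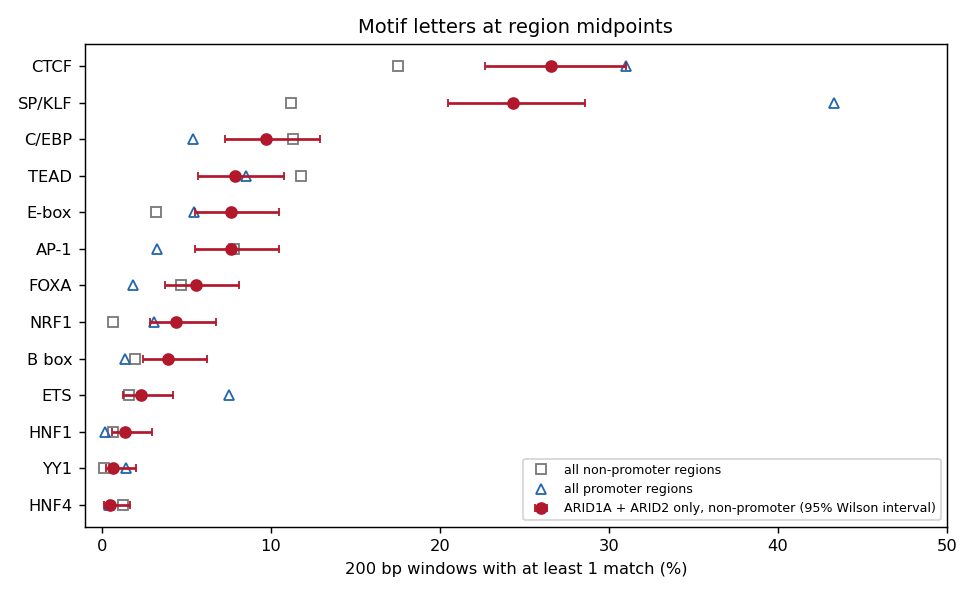
Percentage of windows of 200 bp with at least 1 match to each of 13 motif words, for the members (filled circles with 95% Wilson intervals), all non-promoter regions (squares) and all promoter regions (triangles). NRF1, E-box, SP/KLF and CTCF words are more frequent in members than over all non-promoter regions, and TEAD less.

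The word GTTCGANNC is that of the B box, the internal promoter element at which RNA polymerase III transcription of transfer RNA genes is set up. It was in 17 members (3.94%, Wilson interval 2.47 to 6.21%), in 1.99% of all non-promoter windows, in 4.24% with all 3 ARIDs, in 2.58% and 1.37% with ARID1A or ARID2 alone and in 1.37% of all promoter windows. In 9 of the 17 the letters AGNGG, from the upstream A box, stood 25 to 75 bases before it, which is 2.08% of members, against 2.31% of regions with all 3 ARIDs, 0.658% of all non-promoter and 0.356% of all promoter windows. This word was added after the nearest genes of the members had been seen. Of the 17 members, 13 overlapped SNF5 and 6 lay on chromosome 6 between positions 26305610 and 27636534, in the histone gene region. The stretches from A box to B box are shown for 4 of the 9, chosen after their values were seen, with both boxes in capitals and each read along the strand that carries them.

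ALOXE3 stretch, chr17:8023634-8023710, minus strand: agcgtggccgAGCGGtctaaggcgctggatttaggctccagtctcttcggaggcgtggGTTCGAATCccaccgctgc
HIST1H3PS1 stretch, chr6:26305720-26305796, minus strand: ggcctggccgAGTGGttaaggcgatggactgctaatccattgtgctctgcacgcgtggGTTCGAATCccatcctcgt
ZNF184 stretch, chr6:27463596-27463672, plus strand: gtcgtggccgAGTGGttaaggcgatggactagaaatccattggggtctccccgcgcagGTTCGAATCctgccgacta
XXbac-BPG34I8.3 stretch, chr6:27513471-27513547, plus strand: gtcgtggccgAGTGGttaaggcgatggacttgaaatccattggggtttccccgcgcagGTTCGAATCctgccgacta

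The ZNF184 and XXbac-BPG34I8.3 stretches were identical at 75 of 77 positions, and the HIST1H3PS1 and ZNF184 stretches at 59 of 77. The gene names are those of the nearest TSS in the authors' annotation, which the stretches themselves need not belong to. The Gencode file used here annotates no nuclear transfer RNA genes, so whether these stretches are such genes was not tested. Near-identical copies also make short reads hard to place, and the part this plays was not tested.

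Most members stood alone along the genome, and the grouping of other regions was not counted. With members at most 10000 bp apart joined, there were 388 groups, of which 36 held at least 2 members and together took in 80. The largest held 4. One of these, chr11:65185093-65195137, ran across NEAT1, the long non-coding RNA that builds nuclear paraspeckles, with 3 members upstream, all under the same SNF5 peak of 6407 bp with a score of 34, and 1 in the exon. The other, chr16:22201722-22207356, was assigned to EEF2K and its members had SNF5 scores of 22 to 36. Groups of 3 were found near IRF2BP2, at CDC27P1, at the heat shock genes HSPA1B and HSPA1L, and at CTSB, which encodes cathepsin B. Chromosome 6 held the most members, 55 (12.7%), against 8.52% of all non-promoter regions.

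The members were assigned to 378 gene names, 3.04% of the 12428 names in the ARID lists, and 256 of the 378 (67.7%) also had an ARID1A or ARID2 peak of the promoter class. The same share over all names was not counted, so 67.7% is not read as particular to these genes. Most names had 1 member. Metazoa_SRP had 5 and U1 had 4, but these names each stand for many scattered copies of small RNA genes. NEAT1 and EEF2K, single genes, had 4 each.

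Among 24 hepatocyte transcription factor genes with any ARID peak, 3 had a member. Among them were FOXA1, a pioneer factor gene (chr14:38056451-38057237, distal at 6532 bp, SNF5 score 24) and GATA4 (chr8:11564242-11564488, in an intron, without SNF5). Of 43 genes of apolipoproteins and plasma proteins, 3 had a member. APOB, the structural protein of low-density lipoprotein, had one in an intron (chr2:21263456-21263780) and AMBP, the precursor of alpha-1-microglobulin, a distal one (chr9:116843679-116844581), both with an SNF5 score of 33. The third lay 1808 bp from the TSS of APOE (chr19:45406948-45407396, score 25). ARID1B peaks lay close by at AMBP and APOB, 62 and 235 bp away.

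In the list of cholesterol and lipid metabolism, 2 of 41 genes had members. SREBF1, the gene of a transcription factor that drives lipid synthesis, had a pair of them, at chr17:17742834-17743130, printed above, and chr17:17743418-17743781, both under the same SNF5 peak, with a score of 29, and at 738 and 87 bp from an ARID1B peak. INSIG2, whose protein holds back SREBP processing, had one at chr2:118844687-118844932 with a score of 22. The insulin and IGF list had 2 of 15, at IGFBP1, a secreted binding protein of the liver (chr7:45925061-45925268, without SNF5), and FOXO3 (chr6:108879213-108879563, score 15). The FOXO3 member covered a v44 start of an unnamed gene.

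Members were also assigned to growth-response and signalling genes. The AP-1 list had 2 of 13, JUN (chr1:59247440-59247887, in an exon, score 23) and MAFK (chr7:1572034-1572642, without SNF5). The KLF list had 2 of 8, KLF6 (chr10:3825172-3825931, in an intron, score 19) and KLF9 (chr9:73033930-73034640, score 26). In the TGF-beta and SMAD list, 2 of 28 genes had a member, SMAD7, an inhibitor of the pathway (chr18:46478528-46479123, score 21), and SKI, a SMAD co-repressor (chr1:2166066-2166331, score 24). The Wnt list had 3 of 25, with TCF7L1 (chr2:85534329-85534537, score 24), the co-receptor LRP5 (chr11:68082620-68083015, without SNF5) and MYC (chr8:128750560-128750942, in an exon, score 22, 109 bp from an ARID1B peak). Each list was read against the 3.04% of all names, with no test, since genes differ in how many peaks they hold and the lists are small.

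The genes of the complexes themselves included 2 of 23 with a member. One was ARID1A (chr1:27024599-27024956, in an intron 1760 bp from the TSS, SNF5 score 17), the gene of one of the subunits mapped here, and the other GLTSCR1L, named BICRAL in Gencode v44 (chr6:42750982-42751434, score 19). Of the 7 loci examined individually in the study, which are not an independent choice, 5 had any ARID peak assigned and 3 had a member. Besides KLF6 and MYC this was SPOCK2, a secreted proteoglycan gene, with a distal member 38295 bp from the TSS (chr10:73790235-73790406, score 27, 154 bp from an ARID1B peak).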

How the data were processed

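The authors aligned reads to hg19 with Bowtie2, merged the replicates of each antibody and called broad peaks. The deposited ARID lists give peak positions and labels (nearest TSS, distance, feature class, chromatin state), and the deposited SNF5 list gives positions with a score, used as deposited. How the input was used is not given in the sources used here. The files use 0-based starts, which were raised by 1 for printing. Regions were merged in Python 3 with pandas, compared by two-sided Fisher exact tests (SciPy), with Benjamini-Hochberg adjustment within 4 SNF5, 3 state and 3 intron comparisons and a threshold of 0.05. Odds ratio intervals are Woolf intervals with 0.5 added per cell, and all intervals cover counting error only. Alternatives included Mantel-Haenszel tests over 5 width strata. Sequence was read from GRCh37 with pysam. Scripts were tested on simulated data. The named members were the 10 with the highest SNF5 scores, genes with the most members, members assigned to listed genes, the study's loci and members at the rule's limits. The members, lists and motifs were chosen with earlier results of these data known. Results for some listed items are not reported here.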

Additional observations from a re-analysis of the deposited data

How the results depend on the processing

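No paired analysis was possible because the deposited lists merge the replicates of each antibody, and for the same reason no replicate could be left out. Over the alternatives, the SNF5 odds ratios ranged from 2.79 to 7.79 against ARID1A alone, from 3.51 to 8.77 against ARID2 alone and from 0.063 to 0.303 against all 3 ARIDs, always past the threshold. Against promoter regions with the pair the odds ratio, never past the threshold, crossed 1 with the 200 bp window (1.02), width strata (1.20), SNF5 scores at or above the list median (1.19) and SNF5 within 1000 bp (1.09). For the strong enhancer state, counting any peak of a region gave 1.73 against ARID1A alone and 2.11 against ARID2 alone, both past the threshold. Each member holds both an ARID1A and an ARID2 peak to count, and the part this plays was not tested. Outside chromosome 1 these values rest on labels that failed the check. Against all 3 ARIDs the strong enhancer result no longer passed within width strata (0.733), in distal regions (0.789) or on chromosome 1 (0.679). It crossed 1 in distal regions against ARID1A alone (1.02) and on chromosome 1 against ARID2 alone (0.827). The intron comparison with all 3 ARIDs passed only beyond 5000 bp from a TSS (0.671). The number of members fell to 279 without those within 1000 bp of an ARID1B peak and to 186 without those within 5000 bp of a TSS, and lay between 341 and 468 under the other alternatives. Unless stated, causes were not tested.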
